A study of Mus musculus with 6 samples.

Results

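The platelet adhesion glycoproteins are 10 genes: Itga2b and Itgb3, which encode the αIIb and β3 chains of the platelet integrin, Gp1ba, Gp1bb, Gp5 and Gp9, which encode the subunits of the GPIb-IX-V receptor, the receptor genes Gp6, Clec1b and Treml1, and Vwf, which encodes von Willebrand factor. They were picked by symbol as platelet adhesion receptors and their ligand, and all 10 were matched among the 24815 Ensembl identifiers in the files. RNA-seq libraries of common myeloid progenitors gave their transcript levels, with the cells taken from E13.5 (embryonic day) fetal livers of C57BL/6 mice. The -77-/- group (3 libraries, mutants C, D and Q) is homozygous for deletion of the Gata2 -77 enhancer, and the WT group (3 libraries, wild types A, F and L) has no altered allele named in the labels. The gate for both genotypes took cells negative for lineage markers, which included CD41, CD48, Gr-1 and TER-119, and cells that lacked Sca-1, carried CD34 and c-Kit and had little Fc receptor. The labels do not say whether libraries come from separate embryos or from pools, and a p-value here reflects just the spread among these libraries, which may be technical.

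On a platelet, GPIb-IX-V binds von Willebrand factor at a wound and slows the cell. The collagen receptor GPVI and the podoplanin receptor CLEC-2 then signal inside it, and the activated αIIbβ3 integrin binds fibrinogen and von Willebrand factor and links platelets together. These genes are switched on as progenitors enter the megakaryocyte lineage, where GATA factors, the cofactor FOG1 and ETS family factors act on many of them. GATA2 is a transcription factor of stem and progenitor cells, and the comparison addresses how the transcripts of these cells differ once its -77 enhancer is deleted.

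Gata2 itself had 8.92, 16.5 and 17.8 CPM in mutants C, D and Q, against 78.6, 57.4 and 63.9 CPM in wild types A, F and L (CPM, reads relative to library size after scaling). Depth ran from 14800563 to 30596279 expected counts in mutant libraries and from 14473913 to 21509720 in wild-type libraries, where expected counts are the estimated reads per gene. Mutant C stood apart from the other libraries. Its correlation of log2 CPM with each of them was 0.880 to 0.923, against 0.974 to 0.989 among those 5, and ribosomal protein genes took 20.7% of its counts, against 6.34% to 8.64% elsewhere. Its counts leaned to short genes, with a mean gene length weighted by counts of 1781 bases, against 2834 to 3124 bases in the others. Results are therefore given with all 6 libraries and without mutant C. The gate gene Cd34 was abundant in both groups, at 323, 752 and 687 TPM in mutants C, D and Q, against 585, 654 and 638 TPM in wild types A, F and L (TPM, a relative transcript level corrected for gene length). In log2 CPM, Cd34 in mutant C exceeded the mean of mutants D and Q by 0.31, so its low TPM there does not hold on both scales.

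Some of the platelet adhesion genes fell in -77-/- progenitors, led by Gp5, Treml1 and Itga2b. The TPM of all 10 genes summed to 8.42, 15.04 and 14.26 in mutants C, D and Q, against 60.11, 45.96 and 51.07 in wild types A, F and L. TPM sums of mutant C, here and below, carry its lean to short genes. Itga2b, for one, was at 1.47, 4.39 and 4.01 TPM in mutants C, D and Q, though at 7.82, 7.94 and 8.12 CPM. Of the 10 genes, 7 had enough reads for the test and 3 (Gp1bb, Gp6 and Clec1b) did not. All 7 had a fitted log2 change below 0, with a median of -2.28, beside -0.02 over all 12222 genes tested. Gp5 passed the filter on low counts through the wild types with 0 mutant libraries at its cutoff, and Treml1, Gp1ba and Vwf with 1 mutant library at it, so counts and the median over the 7 describe these genes and are no test of the group. By edgeR's quasi-likelihood test adjusted over all genes, 3 of 7 fell (Itga2b, Gp5 and Treml1), where 0.147% of all tested genes were called lower and 0.00818% higher. With 6 libraries 6 of 7 had an unadjusted p under 0.05 and a lower level, where 3.09% of all genes did. Without mutant C, 6 of 7 fell, namely these 3 with Itgb3, Gp1ba and Vwf, where 0.761% of 12614 genes were called lower, 0.84% in either direction, and the median of the 7 was -2.29.

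In 6 of the 7 tested genes, all but Gp9, every mutant library lay below every wild-type library in CPM, which held for 11.4% of all tested genes. DESeq2 on all 6 libraries called 5 genes lower (Itga2b, Gp1ba, Gp5, Vwf and Treml1), where it called 0.576% of all genes lower. Adhesion genes called lower numbered 4 without the low-count filter, where 0.19% of all genes were called lower, 4 with a minimum count of 30 (0.292%), 3 with length offsets (0.409%) and 1 by limma on log2(TPM + 0.1) (0.106%). The limma-voom fit with quality weights, which gave mutant C a weight of 0.0428 and the other libraries 0.644 to 3.45, called 7 of 7 lower, where it called 2.27% of all genes lower. With any library other than mutant C left out, edgeR called 0 of 7 and 0 over all genes, while 6 of 7 had an unadjusted p under 0.05 in each of these 5 refits. Over all genes that share was 13% without mutant D, 8.34% without mutant Q, 2.41% without wild type A, 3.2% without wild type F and 3.28% without wild type L. Adjusted p over those refits (without mutant D, mutant Q, wild type A, wild type F or wild type L) was 0.157 to 0.240 for Itga2b, 0.135 to 0.240 for Gp5 and 0.060 to 0.240 for Treml1. In bulk RNA, fewer cells that make a transcript and less of it per cell cannot be told apart.

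**Figure D1:**
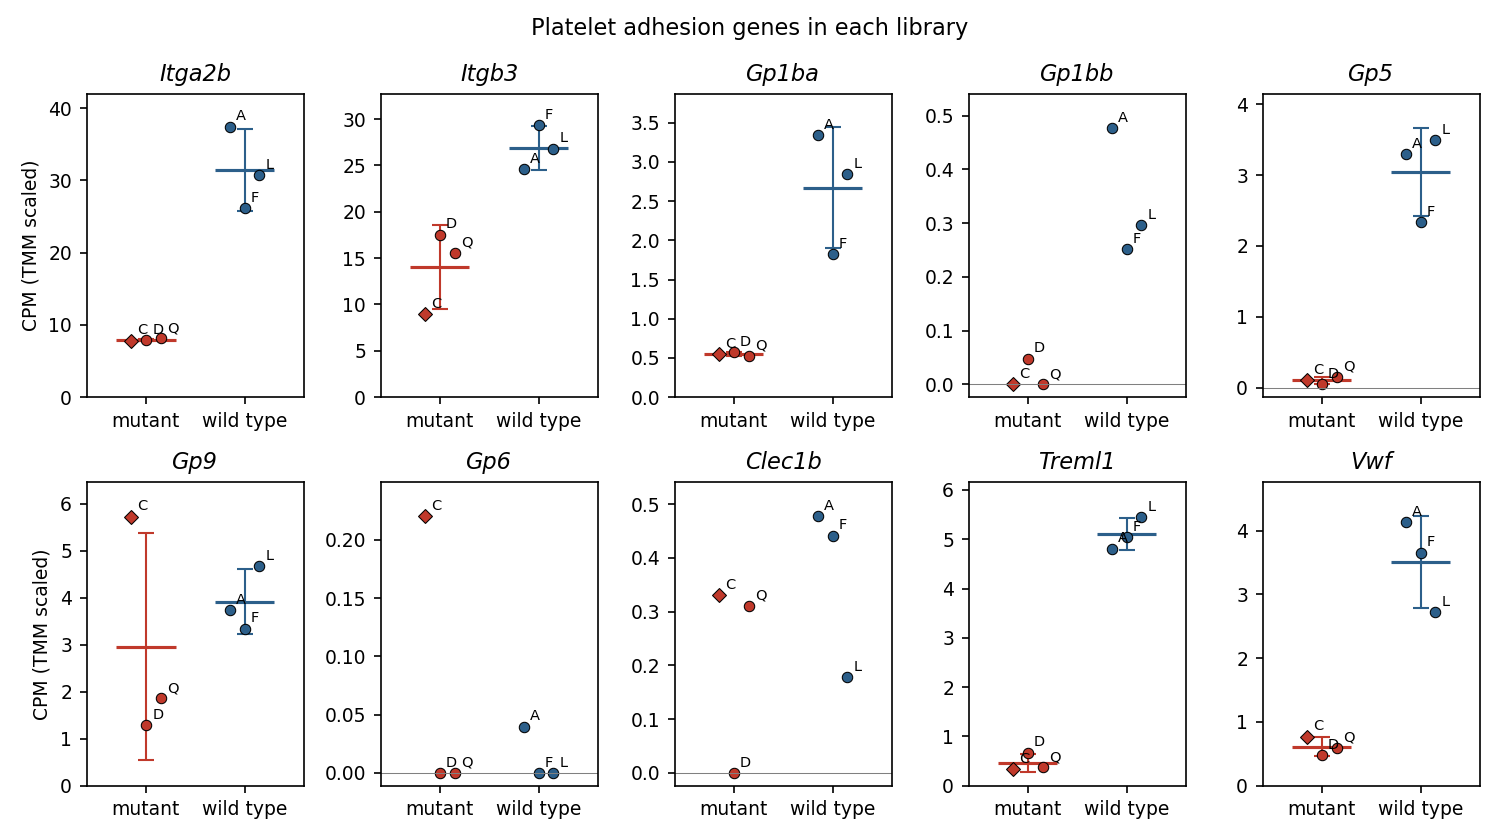
Level of each of the 10 genes in CPM (linear axes, own scale per gene) in the 3 mutant libraries on the left of each panel and the 3 wild-type libraries on the right, with letters naming libraries and a diamond for mutant C. Lines and bars give the mean and SD, left out for Gp1bb, Gp6 and Clec1b, whose libraries hold few reads. Mutant and wild-type points do not overlap for Itga2b, Itgb3, Gp1ba, Gp1bb, Gp5, Treml1 and Vwf, and mutant C lies above all other libraries for Gp9.

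Of the integrin chains, the αIIb transcript fell with all 6 libraries and the β3 transcript fell without mutant C. Itga2b (ENSMUSG00000034664) lies on chromosome 11 from 102453297 to 102470122 on the minus strand of mm10, with 30 exons, and its product CD41 is among the markers the gate excluded in both genotypes. Its level was 7.82, 7.94 and 8.12 CPM in mutants C, D and Q, against 37.4, 26.2 and 30.7 CPM in wild types A, F and L. The mutant libraries lay close together and far below the lowest wild type. Itga2b fell 3.94-fold, for a log2 change of -1.98 and an SE of 0.18 (edgeR adjusted p = 0.032). Leaving out mutant C again gave a log2 change of -1.98 (edgeR adjusted p = 0.0035).

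Itgb3 (ENSMUSG00000020689, chromosome 11, 104608000 to 104670476, plus strand, 15 exons) encodes the β3 chain, which pairs with αIIb on platelets and with αv on other cells. Its level was 8.92, 17.5 and 15.6 CPM in mutants C, D and Q, against 24.6, 29.3 and 26.8 CPM in wild types A, F and L. The groups did not overlap, and mutant C was the lowest library. The log2 change was -0.93 with a standard error of 0.27, which missed the threshold over all genes with 6 libraries (edgeR adjusted p = 0.58). Without mutant C, Itgb3 fell by 0.71 on the log2 scale with a standard error of 0.10, which is 1.63-fold (edgeR adjusted p = 0.032).

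On the TPM scale, which allows levels of different genes to be compared, Itga2b stood above Itgb3 in every wild-type library. TPM does not remove the lean of mutant C to short genes. Itga2b (3437 bases) is shorter than Itgb3 (5784 bases), so the ratio in mutant C carries that lean. The ratio of Itga2b to Itgb3 TPM was 1.48, 0.765 and 0.881 in mutants C, D and Q, against 2.57, 1.51 and 1.93 in wild types A, F and L. The highest mutant, C, lay just under the lowest wild type, F. A difference of the mean log2 ratio, -0.97, had an exact permutation p = 0.10 (two-sided, n = 3 per group), the smallest that 3 against 3 libraries allow, and likewise 0.10 adjusted over the 4 ratios compared in these genes.

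Among the GPIb-IX-V subunits, Gp5 fell and had the lowest fitted log2 change, Gp1ba fell without mutant C, and Gp9 did not pass in either edgeR fit. GP1BA carries the von Willebrand factor binding site, GP1BB and GP9 hold the complex together at the membrane, and GP5 is a thrombin substrate that joins more loosely. RefSeq windows before the start site (GRCm38.p6, the build mm10) were matched for 8 of the 10 genes, and the 250 bases upstream are shown for Gp5, Gp1ba, Gp9 and Treml1, because these genes have different fitted changes and differ in motif content. Capitals mark motifs on either strand. The GATA factor motif was searched as AGATAA and as TGATAA, then with the last base changed as AGATAG and as TGATAG. The ETS motif was searched as AGGAAG and as CGGAAG, then with the last base changed as AGGAAA and as CGGAAA, and a motif on the other strand appears as its reverse complement. The windows are chr16:30310782-30311031 on the minus strand for Gp5, chr11:70638872-70639121 on the plus strand for Gp1ba, chr6:87777820-87778069 on the plus strand for Gp9 and chr17:48359666-48359915 on the plus strand for Treml1.
Gp5: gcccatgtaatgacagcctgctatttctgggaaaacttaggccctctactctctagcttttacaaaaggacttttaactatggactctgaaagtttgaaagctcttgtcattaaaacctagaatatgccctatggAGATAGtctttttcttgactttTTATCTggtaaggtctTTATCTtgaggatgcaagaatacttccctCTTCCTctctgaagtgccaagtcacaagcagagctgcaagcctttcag
Gp1ba: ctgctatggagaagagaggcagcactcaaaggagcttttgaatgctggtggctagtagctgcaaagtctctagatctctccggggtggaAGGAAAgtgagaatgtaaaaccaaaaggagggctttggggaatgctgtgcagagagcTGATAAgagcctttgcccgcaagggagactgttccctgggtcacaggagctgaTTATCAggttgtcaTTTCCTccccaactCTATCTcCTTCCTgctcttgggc
Gp9: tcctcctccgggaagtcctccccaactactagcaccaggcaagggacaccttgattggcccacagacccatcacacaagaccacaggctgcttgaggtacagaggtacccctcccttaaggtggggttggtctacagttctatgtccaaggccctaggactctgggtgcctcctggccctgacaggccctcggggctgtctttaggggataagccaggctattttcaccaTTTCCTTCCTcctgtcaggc
Treml1: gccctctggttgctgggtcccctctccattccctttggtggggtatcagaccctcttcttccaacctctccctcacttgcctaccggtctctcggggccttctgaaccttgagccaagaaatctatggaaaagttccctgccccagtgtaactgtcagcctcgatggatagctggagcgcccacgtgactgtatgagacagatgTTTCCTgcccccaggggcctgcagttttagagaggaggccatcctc
Gp5 and Gp1ba each held 3 GATA motifs, with 1 ETS motif in Gp5 and 3 in Gp1ba. Gp9 held 0 GATA motifs and 2 overlapping ETS motifs, and Treml1 held 0 and 1. Across the 8 matched genes, 5 windows held at least 1 GATA motif and 2 held more than 1, where 26.5% and 6.4% of 32851 RefSeq windows did. All 8 held an ETS motif, as did 57.2% of the windows. The Itga2b window begins from a RefSeq start 239 bases inside the GENCODE transcript, so it is not shown. It is still counted among the 8, with 0 GATA and 3 ETS motifs. A match is a description of the letters and not of binding.

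Gp5 (ENSMUSG00000047953, chromosome 16, 30307685 to 30310779, minus strand) had 0.110, 0.0478 and 0.155 CPM in mutants C, D and Q, against 3.30, 2.33 and 3.49 CPM in wild types A, F and L. In expected counts these were 1, 1 and 5 reads in mutants, against 83, 37 and 59 in wild types. The mutant libraries were near the limit of detection and none overlapped a wild type. Gp5 fell 26.3-fold, for a log2 change of -4.72 and an SE of 0.44 (edgeR adjusted p = 0.032). Leaving out mutant C again gave a log2 change of -4.72 (edgeR adjusted p = 0.0067).

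Gp1ba (ENSMUSG00000050675, chromosome 11, 70639122 to 70642036, plus strand) had 0.551, 0.574 and 0.527 CPM in mutants C, D and Q, against 3.34, 1.83 and 2.84 CPM in wild types A, F and L. The mutant libraries lay within a narrow band below all wild types. The log2 change was -2.28 with a standard error of 0.33 and missed the threshold with 6 libraries (edgeR adjusted p = 0.091). Without mutant C, Gp1ba fell 4.90-fold, for a log2 change of -2.29 and an SE of 0.38 (edgeR adjusted p = 0.049).

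Gp9 (ENSMUSG00000030054, chromosome 6, 87778072 to 87779768, plus strand) lies on the chromosome of Gata2, 414123 bases upstream of it. It had 5.73, 1.29 and 1.86 CPM in mutants C, D and Q, against 3.74, 3.34 and 4.68 CPM in wild types A, F and L. Mutants D and Q lay below all wild types and mutant C above them. The log2 change was -0.48 with a 95% interval of -1.83 to 0.87 (edgeR adjusted p = 0.65). The fit that left out mutant C gave -1.30 with an interval of -1.95 to -0.65 (edgeR adjusted p = 0.13). On the deposited TPM scale the groups did not overlap, with 4.74, 3.13 and 4.03 TPM in mutants C, D and Q, against 10.3, 8.17 and 11.2 TPM in wild types A, F and L.

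The position of mutant C for Gp9 went with the length of the gene. At 811 bases in the deposited files Gp9 is the shortest of the 7 tested genes, and its log2 CPM in mutant C exceeded the mean of mutants D and Q by 1.82, where the median of all genes in the same decile of gene length was 1.64. Over 12222 genes this log2 ratio fell with length, at a Spearman's rho of -0.75, computed across genes and not across independent replicates. Itgb3 (5784 bases) stood at -0.88, where its decile had a median of -1.32. Treml1 (1248 bases, 3 expected counts in mutant C) lay off the trend, at -0.49 where its decile had a median of 1.02. Vwf, with 7 expected counts in mutant C, stood at 0.46. At the mean length of Vwf over libraries (6789 bases) the decile had a median of -1.32. The deposited length of Vwf in mutant C was 2102 bases, and the decile of Gp5 (2196 bases) had a median of 0.34. Whether Vwf departs from the trend therefore depends on the length used. With a length trend removed from each library, the log2 change of Gp9 was -1.35 (edgeR adjusted p = 0.091), and with quality weights it was -1.21 (limma-voom adjusted p = 0.019).

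**Figure D2:**
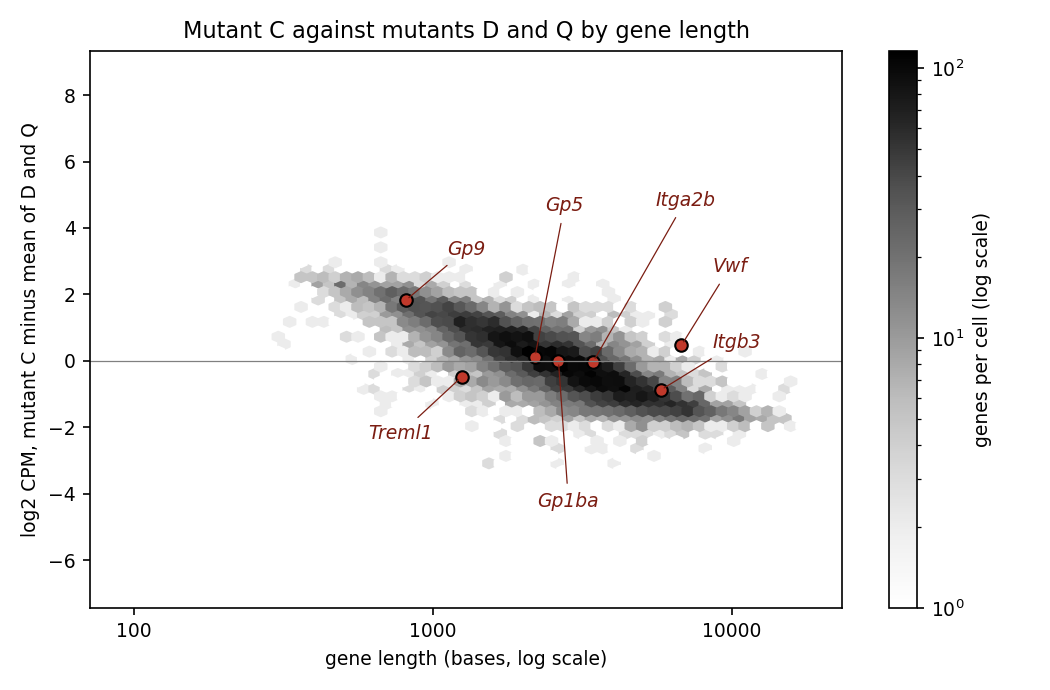
Log2 CPM in mutant C minus the mean of mutants D and Q (vertical axis) against gene length in bases (log axis) for 12222 tested genes, shaded by the number of genes, with the 7 tested adhesion genes as red points. The cloud slopes down with length (Spearman's rho -0.75), and Gp9 lies at 1.82 among other short genes. Treml1 lies off the trend, as does Vwf at its mean length over libraries, which differs from its length in mutant C.

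Gp1bb (ENSMUSG00000050761, chromosome 16, 18620317 to 18622403, minus strand) had too few reads for the test. It held 0, 1 and 0 expected counts in mutants C, D and Q, against 12.2, 4 and 4.83 in wild types A, F and L. Summed over libraries this was 1 read against 21, a rate ratio of 0.0443 (mutant over wild type) with an exact 95% Poisson interval of 0.00107 to 0.275 that covers counting error only. In GENCODE M21, 91.1% of its exon bases are also exon bases of Sept5 on the same strand, so its counts depend on how reads were split. Sept5, a septin gene, was itself at 1, 5 and 6 expected counts in mutants, against 8.77, 2 and 1.17 in wild types, and these ranges overlap.

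The TPM ratio of Gp5 to Gp9 was 0.00633, 0.0128 and 0.0298 in mutants C, D and Q, against 0.316, 0.250 and 0.268 in wild types A, F and L. The ratio of Gp5 to Gp1ba was 0.214, 0.1 and 0.364 in mutants, against 1.19, 1.49 and 1.52 in wild types. The ratio of Gp1ba to Gp9 was 0.0295, 0.128 and 0.0819 in mutants, against 0.267, 0.168 and 0.177 in wild types. In all 3 ratios every mutant lay below every wild type, with an exact permutation p = 0.10 each (two-sided, n = 3 per group, the smallest the design allows, and 0.10 adjusted over the 4 ratios). The ratio of Gp5 to Gp9 is the product of the other ratios given here, so its separation follows from theirs and is not a further result. Gp9 (811 bases) is shorter than Gp5 (2196 bases) and Gp1ba (mean 2632 bases). Both ratios to Gp9 were lowest in mutant C and carry its lean to short genes, which TPM does not remove. The Gp5 ratios rest on 1, 1 and 5 expected counts of Gp5 in mutants C, D and Q.

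The receptors that signal through tyrosine kinases were barely detected. Gp6 (ENSMUSG00000078810, chromosome 7, 4363965 to 4397744, minus strand), which encodes the collagen receptor GPVI, had 2, 0 and 0 expected counts in mutants C, D and Q, against 1, 0 and 0 in wild types A, F and L. No difference was detectable at this depth. Clec1b (ENSMUSG00000030159, chromosome 6, 129397297 to 129409335, plus strand), which encodes CLEC-2, had 3, 0 and 10 expected counts in mutants, against 12, 7 and 3 in wild types. The groups overlapped, and the summed 13 reads against 22 gave a rate ratio of 0.550 with an exact 95% Poisson interval of 0.254 to 1.14. This interval covers counting error only and not the spread among libraries.

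Treml1 (ENSMUSG00000023993, chromosome 17, 48359916 to 48367176, plus strand), a receptor gene whose product TLT-1 is stored in platelet α-granules and binds fibrinogen, fell in the mutants. It had 0.330, 0.669 and 0.372 CPM in mutants C, D and Q, against 4.81, 5.04 and 5.45 CPM in wild types A, F and L. The wild types lay close together, the mutants varied more on few reads (3, 14 and 12 expected counts), and the groups did not overlap. Treml1 fell 10.8-fold, for a log2 change of -3.43 and an SE of 0.32 (edgeR adjusted p = 0.032). The fit that left out mutant C gave -3.33 with an SE of 0.31 (edgeR adjusted p = 0.0048).

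Vwf, the ligand, is made by megakaryocytes and by endothelial cells (ENSMUSG00000001930, chromosome 6, 125546774 to 125686679, plus strand, 52 exons). It had 0.771, 0.478 and 0.589 CPM in mutants C, D and Q, against 4.14, 3.66 and 2.72 CPM in wild types A, F and L. The groups did not overlap. The fitted log2 change was -2.55, or 5.88-fold lower, with an SE of 0.31, and just missed the threshold with 6 libraries (edgeR adjusted p = 0.054). Without mutant C Vwf fell by 2.70 on the log2 scale with a standard error of 0.33 (edgeR adjusted p = 0.013). With a length trend removed from each library, at the mean length of Vwf, its log2 change with 6 libraries was -2.18 (edgeR adjusted p = 0.21). The deposited length of Vwf, weighted by isoform, was 2102, 5937 and 6241 bases in mutants, against 8817 bases in each wild type. The TPM of Vwf, at 0.24, 0.15 and 0.16 in mutants against 1, 0.79 and 0.58 in wild types, therefore rests on different lengths.

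Of 10 tested endothelial genes 0 were called by edgeR (1 at an unadjusted p under 0.05), with a median log2 change of -0.15. In CPM every mutant lay below every wild type for 3 of the 10 and above for 2. Over all tested genes these shares were 11.4% and 10.6%. The 12 genes summed to 192, 283 and 263 TPM in mutants C, D and Q, against 267, 266 and 266 TPM in wild types A, F and L, most of it Egfl7, followed by Eng. Cdh5, which encodes VE-cadherin, was at 0.441, 0.908 and 1.15 CPM in mutants, against 0.835, 0.694 and 0.947 CPM in wild types. It was picked with its values in view and does not stand for the list.

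**Figure D3:**
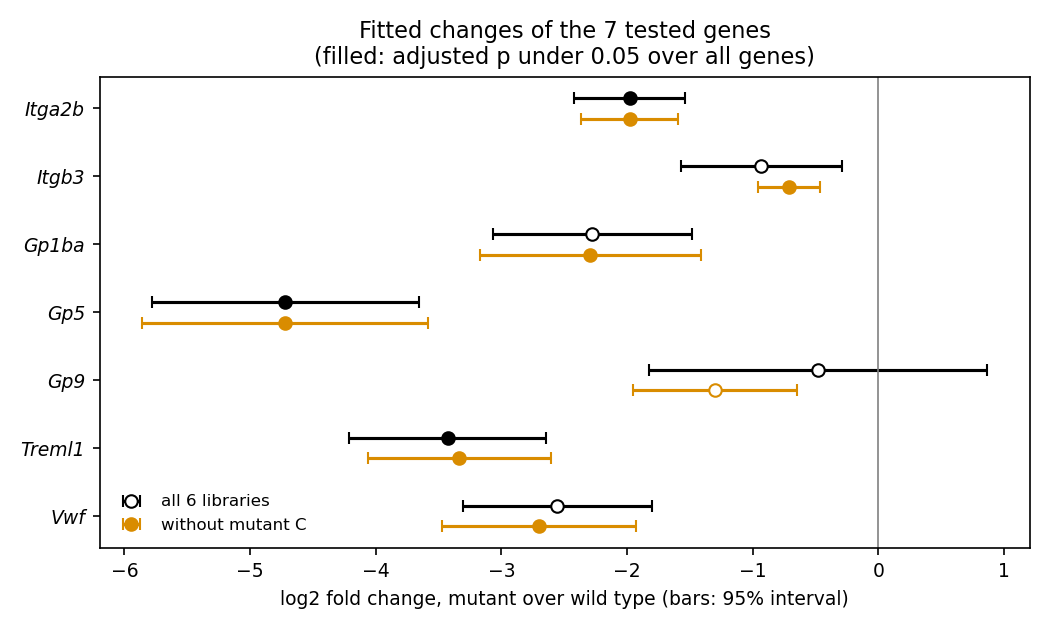
Fitted log2 fold change, mutant over wild type, of the 7 tested genes with 95% intervals, for all 6 libraries (black) and without mutant C (orange), filled where the edgeR adjusted p over all genes is under 0.05. All 7 estimates lie left of 0 in both fits, Gp5 lies furthest left at -4.72, and only the 6-library interval of Gp9 spans 0.

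On the TPM scale the order of the 10 genes differed between the genotypes. In the mutants Gp9 (3.97 ± 0.81 TPM), Itgb3 (3.76 ± 2.47) and Itga2b (3.29 ± 1.59) came first, with overlapping ranges (SD, n = 3). The order of these 3 rested on mutant C, since in mutants D and Q alone Itgb3 had a mean of 5.15 TPM, Itga2b 4.2 TPM and Gp9 3.58 TPM, which puts Gp9 in position 3. Treml1 (0.577 ± 0.438 TPM) came next and overlapped Itgb3, though not its neighbour Itga2b. Clec1b (0.350 ± 0.303), Gp1ba (0.290 ± 0.135) and Vwf (0.183 ± 0.049) followed, each overlapping its neighbour. Gp5 (0.0633 ± 0.0493 TPM) did not overlap Vwf, though it lay within the range of Clec1b, and it overlapped Gp1bb, which overlapped Gp6.

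In the wild types Itga2b came first at 18.3 ± 4.66 TPM and did not overlap the next gene, Gp9 at 9.89 ± 1.56 TPM, which overlapped Itgb3 at 9.15 ± 0.50 TPM. Treml1 followed at 8.23 ± 0.31 TPM, and overlapped Gp9 but neither of its neighbours Itgb3 and Gp5. Gp5 (2.77 ± 0.64 TPM) and Gp1ba (2.03 ± 0.69) overlapped each other, as did Clec1b (0.860 ± 0.488) and Vwf (0.790 ± 0.210). Gp1bb (0.373 ± 0.171 TPM) overlapped Clec1b but not Vwf, and Gp6 (0.0267 ± 0.0462) was last and overlapped no other gene. Gp5 was in position 8 of 10 in mutants, with or without mutant C, and in position 5 in wild types.

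**Figure D4:**
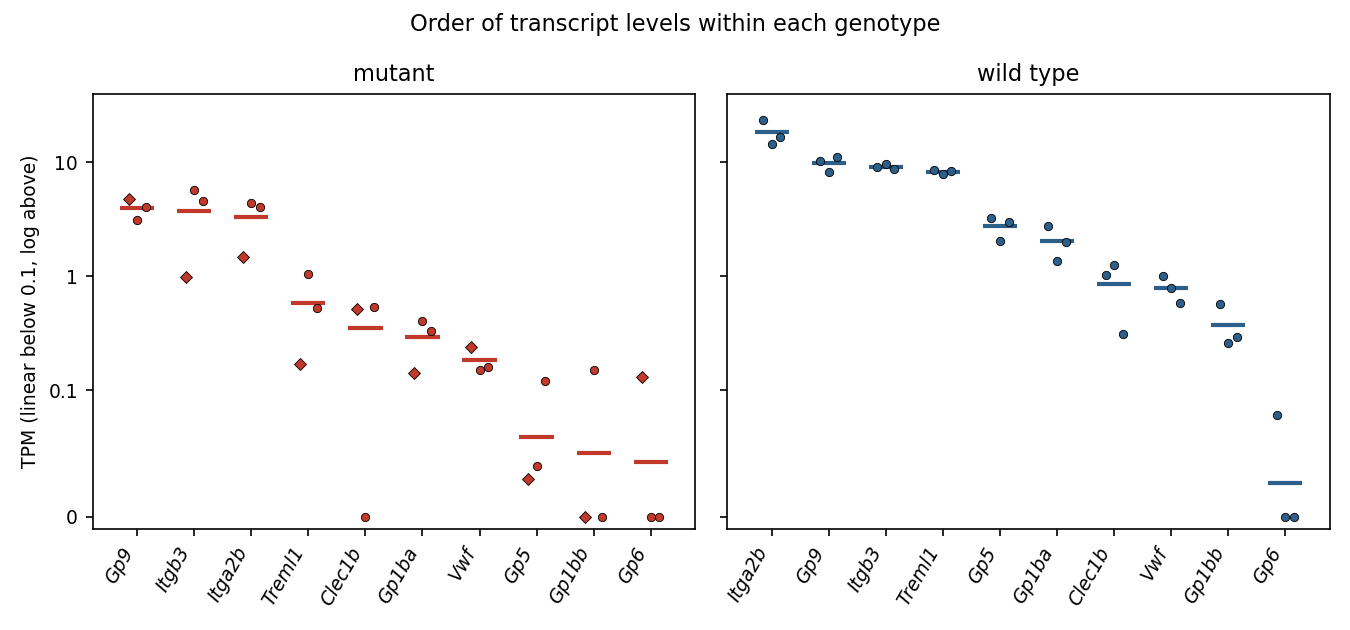
Deposited TPM (linear below 0.1, log above) of the 10 genes, ordered by the group mean, in mutants on the left and wild types on the right. Points are libraries, with a diamond for mutant C, and lines are means over 3 libraries. Itga2b leads at 18.3 TPM in wild types and lies with Gp9 and Itgb3 between 3.29 and 3.97 TPM in mutants.

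The partners and regulators of these receptors were compared in 9 further lists, where 0 genes passed over all genes with 6 libraries by edgeR. Over all genes, edgeR without mutant C called 0.761% lower, and DESeq2 with 6 libraries called 0.576% lower. An unadjusted edgeR p under 0.05 was reached by 4.8% of all genes with 6 libraries and 10.4% without mutant C. Among megakaryocyte transcription factors (14 tested, median log2 change -0.49, 6 at an unadjusted p under 0.05), 5 fell without mutant C, with Gata1 at 2.86, 0.813 and 1.18 CPM in mutants C, D and Q, against 29.6, 20.2 and 24.5 CPM in wild types A, F and L (log2 change without mutant C -4.61, edgeR adjusted p = 0.000665). Gata2 (-1.97), Zfpm1, which encodes FOG1 (-1.56), Gfi1b (-0.86) and the homeobox gene Meis1 (-0.51) were the others. DESeq2 with 6 libraries called 3 of the 14 lower. Gata1, Gata2, Zfpm1, Gfi1b and Meis1 were among 8 of the 14 for which every mutant library lay below every wild type. Over all tested genes that share was 11.4%.

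Of 9 tested receptors for soluble agonists, 3 fell without mutant C: F2r, a thrombin receptor gene (log2 change -1.07, edgeR adjusted p = 0.0011), F2rl2, a thrombin receptor family gene (-1.43, edgeR adjusted p = 0.035), and P2ry1, an ADP receptor gene (-1.03, edgeR adjusted p = 0.039). The list's median log2 change was 0.32 with 6 libraries (3 at an unadjusted p under 0.05) and 0.12 without mutant C, and DESeq2 with 6 libraries called 2 lower. Of the megakaryocyte granule and cytoskeleton genes (13 tested, median -0.47, 6 at an unadjusted p under 0.05, 0 by DESeq2), Rab27b, which encodes a granule secretion GTPase, fell without mutant C (log2 change -1.92, edgeR adjusted p = 0.039).

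The signalling genes below the receptors did not pass the test. Of 13 genes for collagen receptor and CLEC-2 signalling, 0 passed in either fit by edgeR, with 0 at an unadjusted p under 0.05 with 6 libraries and 3 without mutant C, and 0 by DESeq2. Their median log2 change was -0.21 with 6 libraries and -0.04 without mutant C. Those with the smallest p were Tec, a kinase gene, at a log2 change of -0.33, and Fcer1g, the signalling partner of GPVI, at 225, 51.2 and 51.2 CPM in mutants C, D and Q, against 37.9, 42.4 and 45.1 CPM in wild types A, F and L. Of 13 genes that activate or anchor integrins (median -0.16, 1 at an unadjusted p under 0.05, 0 by DESeq2), the adaptor gene Fyb fell without mutant C (log2 change -0.61, edgeR adjusted p = 0.039).

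The other integrin chains were not called in either fit by edgeR, and 0 were called by DESeq2. An unadjusted p under 0.05 was reached by 2 of 17 with 6 libraries and 6 of 19 without mutant C. Over all genes these shares were 4.8% and 10.4%. The smallest p belonged to the collagen-binding chains Itga2 (log2 change -1.43, standard error 0.37) and Itga1 (-1.07, standard error 0.32). The list's median log2 change was -0.40 with 6 libraries and -0.16 without mutant C. Among other platelet surface proteins (16 tested, median -0.06, 0 called in either fit by edgeR, 2 at an unadjusted p under 0.05 with 6 libraries and 3 without mutant C, 0 by DESeq2), the smallest p belonged to Selp, the P-selectin gene (log2 change -1.46, standard error 0.34), and Pecam1 (-0.41, standard error 0.15).

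Among ligands and proteases of the receptors, Thbs1, which encodes thrombospondin, fell without mutant C (log2 change -4.11, standard error 0.49, edgeR adjusted p = 0.012), and Col4a1, a collagen IV gene, rose (2.10, standard error 0.22, edgeR adjusted p = 0.0073). Of the 9 tested with 6 libraries (median 0.29, and 1.40 over the 10 tested without mutant C) 5 had an unadjusted p under 0.05, and DESeq2 called 1 lower and 1 higher. Over all genes, 0.0793% were called higher without mutant C. Pdpn, which encodes the CLEC-2 ligand podoplanin, was not tested for lack of reads. Of the Treml1 and Clec1b family neighbours (8 tested, median 0.53, 3 at an unadjusted p under 0.05, 0 by DESeq2), the C-type lectin receptor genes Clec7a and Clec12a rose without mutant C (log2 changes 0.81 and 0.70, edgeR adjusted p = 0.033 and 0.032).

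**Figure D5:**
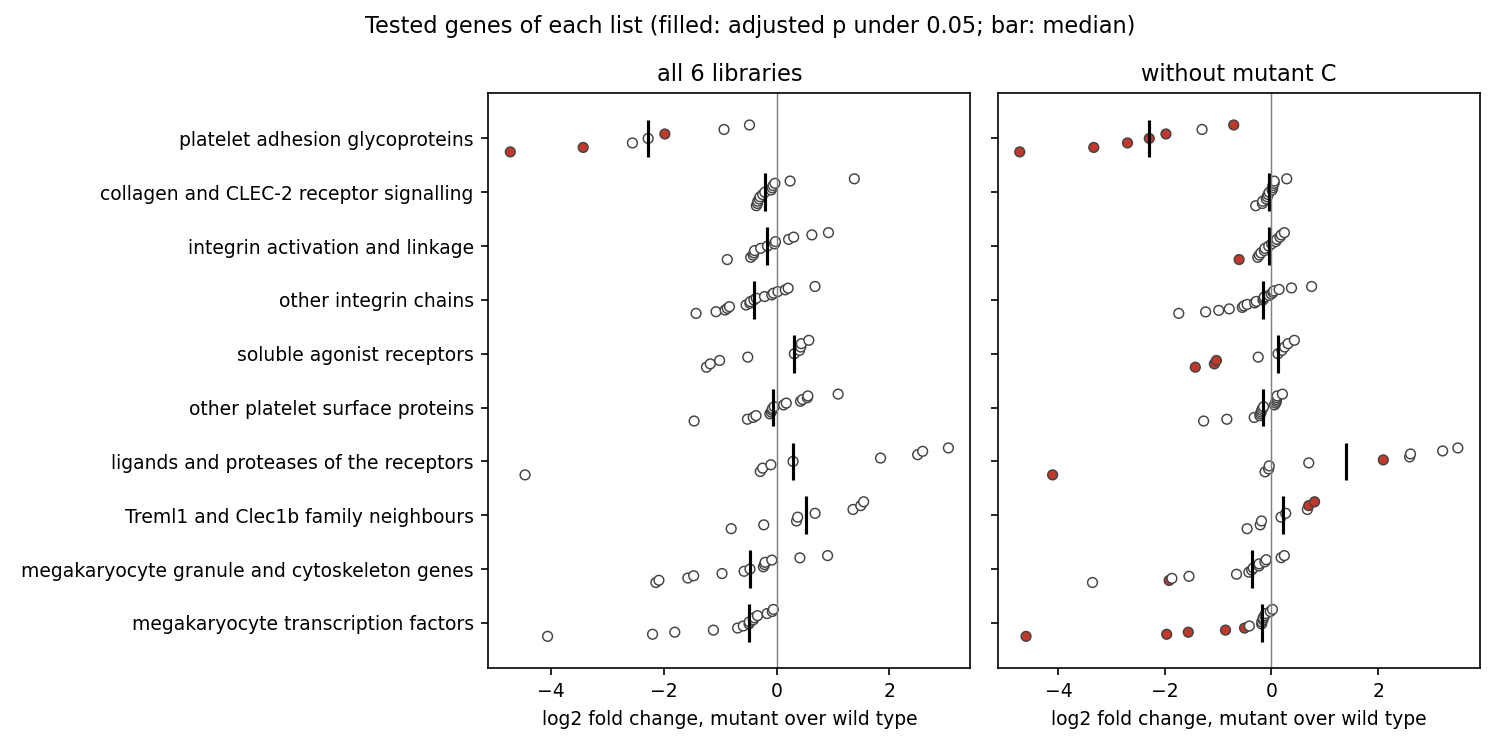
Fitted log2 fold change, mutant over wild type, of every tested gene in the adhesion glycoprotein list and the 9 further lists, with all 6 libraries on the left and without mutant C on the right, filled where the edgeR adjusted p over all genes is under 0.05 and with a bar at the list's median. The adhesion glycoproteins have a median of -2.28 on the left and -2.29 on the right. Medians of the other lists drawn lie between -0.49 and 0.53 on the left and between -0.36 and 1.40 on the right. Marker lists of other cell types are not drawn, and the mast cell and basophil list had a lower median (-3.18 with 6 libraries).

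Of the markers of other cell types, mast cell and erythroid genes held the calls. Over all genes, edgeR called 0.147% lower with 6 libraries and 0.761% lower without mutant C. The 10 mast cell and basophil genes summed to 12.2, 14.9 and 14.2 TPM in mutants C, D and Q, against 187, 149 and 149 TPM in wild types A, F and L. They were led by Cpa3 and Hdc, with Gzmb and Tpsb2 at 0 throughout. By edgeR, 0 of 6 tested were called with 6 libraries (5 at an unadjusted p under 0.05) and 5 fell without mutant C. Their median log2 change, -3.18 with 6 libraries and -3.48 without mutant C, was lower than that of the adhesion genes. In CPM every mutant lay below every wild type for 5 of the 6, as for 11.4% of all tested genes. The 12 erythroid genes, led by Hba-a2 and Hbb-bs, summed to 2263, 975 and 839 TPM in mutants, against 2194, 2595 and 1299 TPM in wild types, and 1 of 12 (Epor, the erythropoietin receptor gene) fell with 6 libraries and 4 without mutant C. The 12 hepatoblast genes, led by Dlk1 and Afp, summed to 120, 148 and 613 TPM in mutants, against 185, 119 and 90.8 TPM in wild types. Their median log2 change was 2.83 with 6 libraries and 2.78 without mutant C, with 0 of 12 called by edgeR in either fit. An unadjusted p under 0.05 was reached by 7 of 12 with 6 libraries and 9 without mutant C. Over all genes these shares were 4.8% and 10.4%. For 5 of the 12, every mutant lay above every wild type in CPM, as for 10.6% of all tested genes. The 12 monocyte and macrophage genes, led by Tyrobp and Lyz2, summed to 1029, 829 and 685 TPM in mutants, against 705, 737 and 725 TPM in wild types. The 10 lymphoid genes, led by Il7r and Lck with Cd3e at 0, reached at most 12.4 TPM in any library, and Mpo led the gate and progenitor genes. The part of other cell types in the platelet adhesion results was not tested.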

How the data were processed

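RNA sequencing was analysed from 3 -77-/- and 3 WT libraries of sorted fetal liver progenitors. RSEM 1.2.18, Bowtie 1.1.1, CASAVA 1.8.2 and the build mm10 are listed in the submitters' processing notes. Strandedness was not given in the sources used here, nor were read layout and annotation release. Per the file headers, the expected counts are RSEM's estimated counts, not normalized. The TPM column, as deposited, is corrected for gene length and library size. FPKM, also deposited, was not tested. Gene lengths are the deposited length column.

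Gene names, matched for 24448 of 24815 identifiers, were looked up by Ensembl identifier in the reference tables, with positions from GENCODE M21 (mm10). Counts were rounded, filtered with filterByExpr (minimum count 10) and scaled by TMM. The genotypes were compared by edgeR 4.0.16's quasi-likelihood test in R 4.3.3, with Benjamini-Hochberg adjustment over all genes at 0.05. Each standard error is |log2 change| over the root of its F value. Alternatives used DESeq2 1.42.0, limma 3.58.1 on voom weights or on log2(TPM + 1) and log2(TPM + 0.1), a loess length trend as an offset, other filters and scaling, and each library left out. The fits were also run on simulated counts with the same dispersion for every gene and no library that leaned to short genes. That run therefore does not test them for a library like mutant C.

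The members, lists and tests were chosen with earlier results of these data known. Of 224 list symbols, 1 matched no gene. Named genes are all members, up to 4 called genes per list (otherwise the 2 smallest p), Gata2, the 2 most abundant genes of each cell type list and the 5 genes most like the members. Meis1, Cdh5, Pdpn, Sept5 and Epor lie outside that rule, picked with their values in view. The replicate letters pair no libraries.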

Additional observations from a re-analysis of the deposited data

How the results depend on the processing

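No paired analysis was possible because the genotypes share no replicate letters. Genes called over all genes numbered 19 with all 6 libraries, 36 with no low-count filter, 33 with a minimum count of 30, 124 by DESeq2, 357 by limma-voom with quality weights, 12 by limma on log2(TPM + 0.1), 54 with length offsets, and 0 to 106 with 1 library left out. Adhesion genes called numbered 3, and 5 by DESeq2, 7 with quality weights, 1 on log2(TPM + 0.1) (Gp5) and 0 to 6 with 1 library left out. For each of the other settings the count was 2 to 4. The 7 tested genes and Gata2 kept a log2 change below 0 in every setting run. Itga2b lost its call on both TPM scales and Treml1 on log2(TPM + 0.1). Vwf was too low for the TPM fits.

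For the 9 further lists, each with 0 calls by edgeR and all libraries, the counts that differed were as follows. Quality weights called 2 Treml1 and Clec1b neighbours, 1 integrin activation gene, 3 other integrin chains, 3 agonist receptors, 2 other surface proteins, 2 ligands and proteases, 5 granule and cytoskeleton genes and 6 transcription factors. DESeq2 called 2 agonist receptors, 2 ligands and proteases and 3 transcription factors, and length offsets 1, 1 and 2 of the same lists. Limma on log2(TPM + 1) called 1 ligand or protease and 1 transcription factor, log2(TPM + 0.1) 1 transcription factor, a minimum count of 30 called 1 and no filter 2. With 1 library left out the range was 0 to 2 for neighbours and for ligands and proteases, 0 to 1 for integrin activation and for granule genes, 0 to 3 for agonist receptors, 0 to 5 for transcription factors and 0 for the rest, with every call made without mutant C. The cause of these differences was not tested. Gp1bb, Gp6 and Clec1b had too few reads for the test. The order of TPM levels without mutant C was added after seeing the data, and it moved Gp9 to position 3 among mutant means, against position 1 with all 3 mutants.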

Other observations

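Outside the adhesion genes, the 5 genes whose log2 CPM over the 6 libraries most resembled the mean standardised profile of the 7 tested members were Muc13, Samd14, Cnr2, Mfsd2b and Rhag, with Pearson correlations of 0.998, 0.998, 0.997, 0.997 and 0.996 (description only, n = 6 libraries that share the genotype contrast and their depth). Of 12215 genes, 65 had a correlation above 0.95. Cnr2, which encodes the cannabinoid receptor CB2, stood at 7.82, 7.74 and 8.15 CPM in mutants C, D and Q, against 19.1, 17.4 and 18.7 CPM in wild types A, F and L. In TPM its mutant C lay apart, at 1.32 against 3.89 and 3.61 in mutants D and Q. Muc13, a transmembrane mucin gene, stood at 11.1, 8.08 and 9.24 CPM in mutants, against 82.7, 60.8 and 66.4 CPM in wild types. Samd14 stood at 0.771, 0.621 and 0.527 CPM in mutants, against 14.7, 10.7 and 11.5 CPM in wild types.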
